A study of Mus musculus with 8 samples.

Results

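The hearts of wild-type mice with experimental autoimmune myocarditis (EAM) were compared with the hearts of wild-type mice labelled day 0. The comparison used 5 of the 8 libraries of the study, 3 of EAM wild type and 2 of control. It covered every gene with at least 1 FPKM in at least 2 of the 8 libraries, which was 10393 of the 34745 genes in the deposited table. FPKM counts sequenced fragments relative to the length of the transcript and to all mapped fragments of the library. The question was what the disease model changes in the heart of a mouse that has TRIM21, a ubiquitin ligase and cytosolic antibody receptor.

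EAM wild-type mice are labelled Wildtype, day 21 of EAM, and all 8 libraries carry the strain name Balb/c. Per the treatment protocol, EAM was raised by subcutaneous injection of 100 µg of a peptide of cardiac myosin heavy chain (MyHCα) in complete Freund's adjuvant on day 0 and again on day 7. The same protocol describes control mice given adjuvant with phosphate-buffered saline, and the labels give day 0 for these hearts. Peptide, adjuvant and time therefore cannot be told apart in this comparison. A second sheet of the workbook lists older library names with a later day than 21 for the EAM hearts, which was not resolved. The 3 other libraries, TRIM21KO hearts at day 21 of EAM, entered the fit for its estimate of the spread only. Age, sex and the parts of the heart that were taken are not given in the labels, and the labels do not say how libraries relate to animals. The p-values below measure the spread between these libraries, which may be technical.

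In EAM, CD4+ T cells that recognise the myosin peptide on class II molecules enter the heart, followed by many monocytes and macrophages. Interferon gamma from T cells and natural killer cells is known to induce genes of antigen presentation, immunity-related GTPases and chemokines in immune and stromal cells of the mouse. The inflamed heart can later pass into fibrosis and dilation.

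Each library held 14390000 to 16930000 fragments, as read from the steps between low FPKM values. Between 9201 and 9975 genes reached 1 FPKM. The Pearson correlation of log2(FPKM + 1) across tested genes was 0.987 between the controls, 0.9745 to 0.9781 within EAM wild type and 0.962 to 0.9764 between the groups. Working muscle markers were abundant, with Myh6, the main myosin heavy chain of the adult mouse heart, at 3381 and 3014 FPKM in control and 2389.7, 2987 and 1904 FPKM in EAM. Trim21 was at 1.98 and 2.18 FPKM in control and 2.98, 3.29 and 3.37 FPKM in EAM, and at 0.0481, 0 and 0.0220 FPKM in the 3 knockout libraries. The higher Trim21 level in EAM wild type did not pass the test (log2 change 0.45, SE 0.11, limma adjusted p = 0.0843). Atrial muscle genes were on average higher in each EAM library than in both controls, most so in EAM wild type 2. The mean log2(FPKM + 1) of 12 tested atrial genes, the atrial score, was 2.086 and 2.043 in control. In EAM it was 3.025, 5.919 and 3.754. Myl7, the atrial myosin light chain, was at 1.202 and 1.04 FPKM in control and 48.6, 977 and 169 FPKM in EAM. The 5 libraries thus differ in an atrial transcript that is near 1 FPKM in both controls, and no atrial gene passed the test. Mitochondrially encoded genes took 33.6% of the length-weighted FPKM in EAM wild type 3 and 36.5% to 41.8% in the other 4 libraries.

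Of the 10393 genes, 141 rose and 14 fell in EAM wild type at a limma adjusted p under 0.05, which is 1.36% and 0.135% of the genes tested. Changes are differences in mean log2(FPKM + 1), a scale that understates the change of low genes. The 141 rises had a median log2 change of 0.93, and 62 of them reached 1 and 12 reached 2. In 41 of the risen genes the control mean was below 1 FPKM, in 86 it was 1 to 10 FPKM and in 14 it was 10 FPKM or more. All 155 genes, 1.49% of those tested, had groups that did not overlap. Without overlap, 24.6% of all tested genes were higher and 6.68% lower. The test picks genes with separated groups, so the lack of overlap among the 155 is no further evidence. Over all genes tested, the log2 changes had a median of 0.08 and 66.7% were positive. After median-ratio scaling, which brings that median to -0.0023, 74 genes rose and 19 fell, so the excess of rises over falls was smaller. Leaving out control 1 left 13 rises and 2 falls, and leaving out control 2 left 48 and 8.

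**Figure D1:**
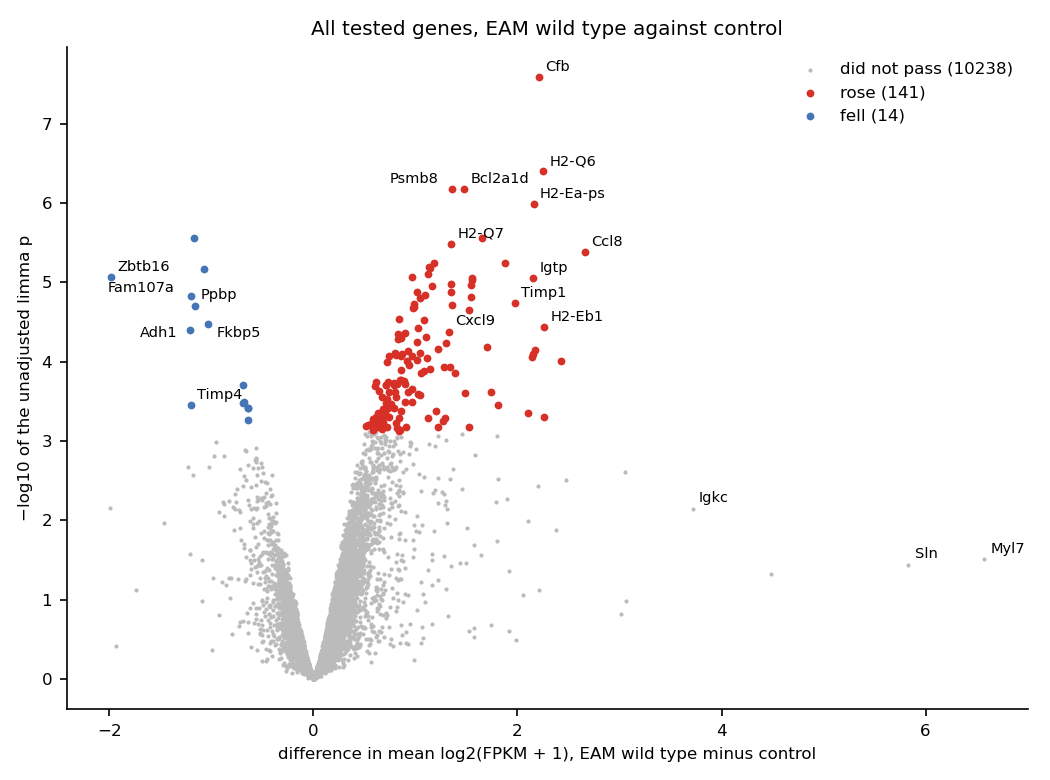
Each point is 1 of the 10393 tested genes, with the difference in mean log2(FPKM + 1) between EAM wild type and control on the x axis and −log10 of the unadjusted limma p on the y axis. The 141 genes that rose are red and the 14 that fell are blue, while the atrial genes Myl7 and Sln and the immunoglobulin gene Igkc lie far to the right without passing the test.

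Class II antigen presentation had the largest share of risen members among the lists. The lists were chosen with earlier results of these data known, so shares of this kind are descriptions and not tests. These genes build the heterodimers that show peptides to CD4+ T cells, and the machinery that loads them. Of 11 tested members 9 rose and none fell, where 1.36% of all tested genes rose, and the median log2 change was 1.56 against 0.08 for all genes. H2-Eb1, a class II beta chain on chromosome 17 from 34305877 to 34316199 (mm10), was at 15.6 and 21.1 FPKM in control and 102, 105 and 69.7 FPKM in EAM. Every EAM library was above both controls, with EAM wild type 3 the lowest of the 3. The mean was 5.03-fold higher in EAM (log2 change 2.26, SE 0.30, limma adjusted p = 0.00948). Its neighbours H2-Aa, an alpha chain, at 9.11 and 12.04 FPKM in control and 60.5, 54.2 and 39.9 FPKM in EAM, and H2-Ab1, its beta chain partner, at 11.2 and 14.9 FPKM in control and 70.3, 74.4 and 43.5 FPKM in EAM, were lowest in the same EAM library. H2-Ea-ps, an alpha chain that is broken in the reference strain and known to be expressed in Balb/c mice, was at 28.4 and 33.3 FPKM in control and 157, 149.8 and 119.5 FPKM in EAM (log2 change 2.16, SE 0.19, limma adjusted p = 0.00213). None of the 20 alternatives lost its call.
The loading genes moved with the chains. H2-DMa and H2-DMb1, which exchange the invariant chain fragment for peptide, were at 2.49 and 2.71 and at 1.497 and 1.84 FPKM in control. In EAM they were at 10.2, 11.7 and 7.398 FPKM and at 8.55, 6.0997 and 5.89 FPKM, so both groups stood apart. H2-DMb2 rose by 1.34 and Ctss, the protease that trims the invariant chain, by 1.28 on the log2 scale. Cd74, the invariant chain itself, was at 70.1 and 108 FPKM in control and 337, 325 and 211 FPKM in EAM (log2 change 1.70, SE 0.25, limma adjusted p = 0.0134). Ciita, the master regulator of class II transcription, was at 0.17995 and 0.194 FPKM in control and 1.204, 1.56 and 0.589 FPKM in EAM and did not pass (adjusted p = 0.0843). Ifi30, a thiol reductase of the loading compartment, did not pass either (adjusted p = 0.16), and the accessory genes H2-Oa and H2-Ob were under the filter. Without control 1 the class II count was 1 of 11, and without EAM wild type 1 it was 6. With the atrial score as a covariate it was 7.

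Class I presentation, which shows peptides from inside the cell to CD8+ T cells, had 9 risen genes of 16 tested, against 1.36% of all tested genes. The median log2 change of the list was 0.96. The light chain B2m, on chromosome 2 from 122147686 to 122153083, was at 252 and 282 FPKM in control and 815, 679 and 863 FPKM in EAM. The groups were far apart, and the mean was 2.94-fold higher (log2 change 1.55, SE 0.19, limma adjusted p = 0.00561). The heavy chain H2-D1 was at 55.04 and 58.5 FPKM in control and 171, 139.9 and 129 FPKM in EAM (log2 change 1.34, SE 0.15, limma adjusted p = 0.00505). H2-K1, the other classical heavy chain measured, was at 5.67 and 5.796 FPKM in control and 21.6, 23.5 and 12.3 FPKM in EAM, and EAM wild type 3 stood nearest to control (log2 change 1.53, SE 0.30, limma adjusted p = 0.0466). Its call was lost under 13 of 20 alternatives.
The nonclassical genes of the Q and T regions rose with them. H2-Q6 was at 3.48 and 2.696 FPKM in control and 22.1, 18.2 and 15.3 FPKM in EAM (log2 change 2.25, SE 0.18, limma adjusted p = 0.00173), and no alternative lost its call. H2-Q7 was at 0.392 and 0.331 FPKM in control and 2.78, 2.76 and 1.95 FPKM in EAM, H2-Q4 at 6.55 and 6.23 FPKM in control and 24.1, 21.98 and 16.7 FPKM in EAM and H2-T22 at 3.46 and 4.199 FPKM in control and 9.24, 8.86 and 10.4 FPKM in EAM. In each of these 3 genes the EAM libraries were clear of both controls. H2-T23, which encodes the ligand of the NKG2A receptor, rose by 0.99 on the log2 scale. H2-Q5, H2-Q2 and H2-K2, outside the fixed list, rose by 1.88, 1.13 and 0.68. These genes are near-identical copies of each other, and Balb/c carries another H2 haplotype than the strain behind mm10, so the split of fragments among them is uncertain.
Tap1, a subunit of the peptide pump, was at 0.679 and 1.05 FPKM in control and 2.52, 2.86 and 2.23 FPKM in EAM (log2 change 0.93, SE 0.14, limma adjusted p = 0.0142). Its partner Tap2 was at 5.94 and 6.05 FPKM in control and 8.31, 9.13 and 7.84 FPKM in EAM and did not pass (adjusted p = 0.109), nor did Tapbp (adjusted p = 0.0615). Nlrc5, the class I transactivator, was at 0.181 and 0.247 FPKM in control and 1.17, 1.39 and 0.906 FPKM in EAM and missed the threshold (adjusted p = 0.0546).

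In the proteasome 2 immunosubunit genes rose. Psmb8, the beta subunit that replaces a constitutive one in the immunoproteasome, was at 2.96 and 2.897 FPKM in control and 9.52, 8.97 and 8.73 FPKM in EAM. The EAM libraries differed by less than 1 FPKM among themselves and the mean was 3.095-fold higher (log2 change 1.36, SE 0.11, limma adjusted p = 0.00173). Psmb9, the second immunosubunit of the H2 region, was at 1.12 and 1.92 FPKM in control and 3.94, 3.696 and 3.54 FPKM in EAM (log2 change 0.93, SE 0.16, limma adjusted p = 0.0265). Psmb10, the remaining immunosubunit, was higher in all 3 EAM libraries but did not pass, at 31.5 and 42.2 FPKM in control and 53.6, 47.4 and 58.5 FPKM in EAM (adjusted p = 0.182). The activator genes Psme1 and Psme2 also did not pass. Of 14 constitutive proteasome genes none passed, and their median log2 change was -0.03. Psmb5, the subunit that Psmb8 replaces, was at 54.4 and 49.6 FPKM in control and 40.6, 42.8 and 58.1 FPKM in EAM, with overlapping groups.

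Many of these genes are neighbours. On chromosome 17 between 33974831 and 37274484 (mm10), from H2-K2 to the last H2 gene tested, 21 of 97 tested genes rose, or 21.6%, against 1.36% of all genes. This stretch held 14.9% of all rises and 0.933% of all tested genes. By symbol, 17 of the 22 genes named H2 rose, and 4 of the other 75 did. The 4 were Tap1, Psmb9, Psmb8 and Cfb, and the 75 had a median log2 change of 0.10. Chromosome 17 as a whole held 25 rises among 545 tested genes, 4.59%, and the other autosomes had 0.548% to 2.1%.

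Interferon-inducible GTPases, which attack the vacuoles of intracellular microbes, had 6 risen genes of 15 tested and a median log2 change of 1.02. Of all tested genes 1.36% rose. Igtp was at 1.73 and 1.84 FPKM in control and 8.88, 14.03 and 11.8 FPKM in EAM, with EAM wild type 2 highest and both controls below 2 FPKM (log2 change 2.15, SE 0.24, limma adjusted p = 0.00479). Irgm1, which regulates the other members, was at 2.201 and 2.05 FPKM in control and 4.43, 6.35 and 6.58 FPKM in EAM (log2 change 1.10, SE 0.15, limma adjusted p = 0.0109). Iigp1 was at 3.64 and 3.68 FPKM in control and 11.1, 20.8 and 15.5 FPKM in EAM and Tgtp2 at 1.99 and 1.77 FPKM in control and 5.73, 8.76 and 6.92 FPKM in EAM. Both were again highest in EAM wild type 2. Among guanylate-binding proteins, Gbp2 was at 4.74 and 4.23 FPKM in control and 9.85, 11.1 and 9.46 FPKM in EAM and Gbp6 at 0.9597 and 0.5204 FPKM in control and 2.73, 3.74 and 3.704 FPKM in EAM, and both rose (1.02 and 1.34 on the log2 scale). Irgm2 (adjusted p = 0.0524), Tgtp1 (0.0546) and Gbp10 (0.0546) lay just past the threshold. Tgtp1 and Tgtp2, and Gbp2 and Gbp2b, are close copies whose split is uncertain. Gm4841, a predicted gene, was at 0.104 and 0.168 FPKM in control and 1.93, 3.29 and 2.62 FPKM in EAM, with a call that no alternative lost. BC023105, also a predicted gene, was at 0.385 and 0.111 FPKM in control and 4.08, 7.18 and 2.97 FPKM in EAM. Without control 1 none of the 15 GTPases passed, and without control 2 it was 1 of 15.
Among regulators of the interferon response, Irf1, Irf8 and Socs1 rose. Irf1, a transcription factor of that response, was at 2.51 and 3.36 FPKM in control and 7.47, 7.32 and 6.42 FPKM in EAM (log2 change 1.04, SE 0.13, limma adjusted p = 0.00569), and Irf8, a factor of myeloid cells, was at 0.811 and 1.01 FPKM in control and 2.35, 1.93 and 1.75 FPKM in EAM. Socs1, a feedback inhibitor of interferon signalling, was at 0.533 and 0.334 FPKM in control and 1.59, 1.44 and 1.805 FPKM in EAM (log2 change 0.87, SE 0.13, limma adjusted p = 0.0142). Irf7 and Irf9 (adjusted p = 0.137 and 0.139), more typical of type I interferon, were higher in every EAM library without passing. Of 23 antiviral interferon-stimulated genes only Zbp1, a nucleic acid sensor, at 0.171 and 0.324 FPKM in control and 1.18, 1.08 and 1.74 FPKM in EAM, and Trim30a, at 1.78 and 1.38 FPKM in control and 2.93, 2.87 and 3.53 FPKM in EAM, rose. Ifit1 was at 0.823 and 0.8701 FPKM in control and 1.47, 1.92 and 2.25 FPKM in EAM and Isg15 at 5.003 and 7.28 FPKM in control and 8.92, 6.82 and 12.9 FPKM in EAM, and neither passed (adjusted p = 0.112 and 0.342). Interferon transcripts were hardly seen. Ifng was at 0 in both controls and at 0.173, 0.0540 and 0 FPKM in EAM, the equivalent of at most 3.22 fragments, and Ifnb1 was at 0 in all 5 libraries, where 3 fragments would be 0.236 to 0.278 FPKM. The receptor genes did not pass, Ifngr1 being at 12.9 and 12.7 FPKM in control and 14.9, 14.4 and 16.3 FPKM in EAM.

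**Figure D2:**
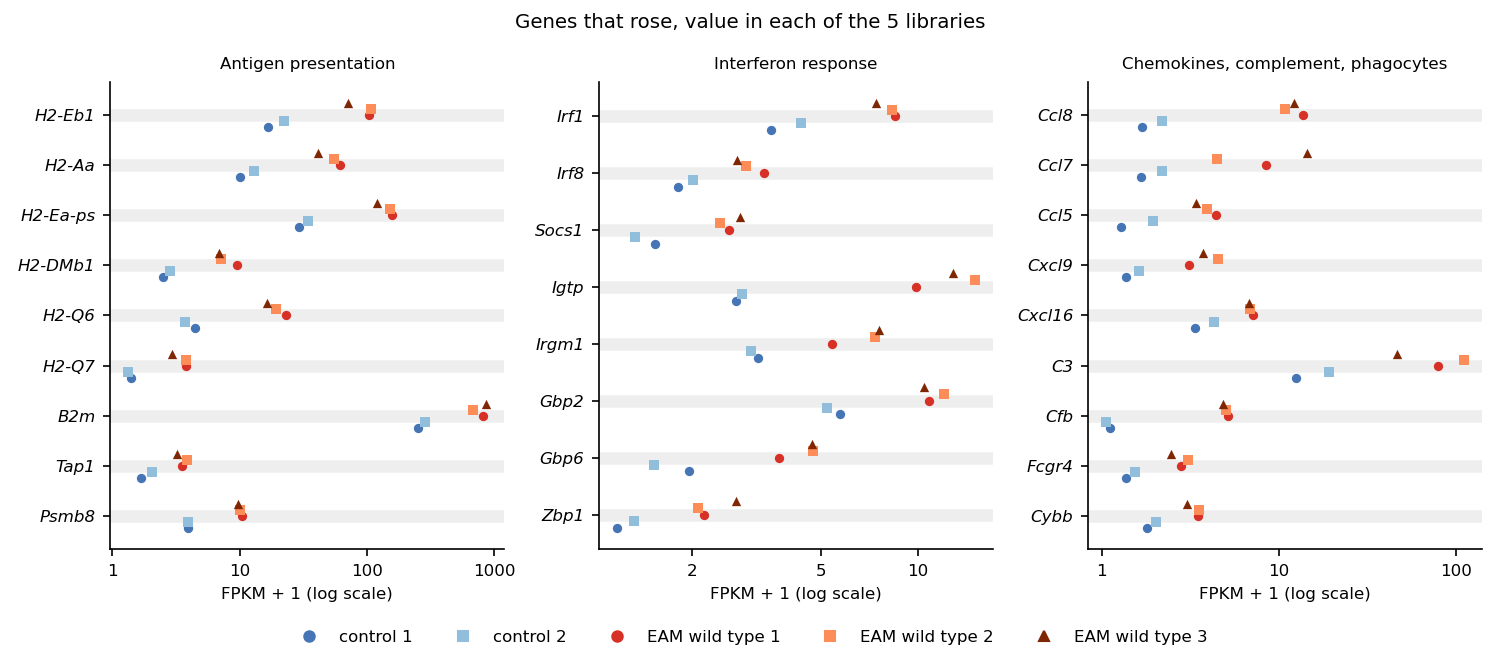
FPKM + 1 on a log scale for 26 genes that rose, 1 point per library, with control in blue and EAM wild type in red to brown. In every gene shown the 3 EAM libraries lie to the right of both controls, as for Psmb8 at 2.96 and 2.897 against 9.52, 8.97 and 8.73 FPKM.

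The promoters of 7 risen genes are printed because, among the risen genes named by the rule, they hold the most matches to 4 motifs. All but the CCAAT box are known from interferon- and inflammation-driven genes. That box is common among all promoters and makes up part of the count. The windows run from 250 bases before to 50 after the RefSeq start (GRCm38.p6, the assembly of mm10), 5′ to 3′ on the gene's strand. Capitals mark matches, on either strand, to the interferon-stimulated response element core (GAAA, any 2 bases, GAAA), the gamma-activated sequence core TTCNNNGAA, the NF-kB site (GGG, any 2 bases, TTTCC) and the CCAAT box. Of 32851 mouse promoters in the same table, 3.44% hold the first, 8.30% the second, 1.63% the NF-kB site and 37.4% a CCAAT box. The table matched 68.1% of the risen and 73.8% of the tested genes, too few to compare the motif content of risen genes with others.
H2-T22: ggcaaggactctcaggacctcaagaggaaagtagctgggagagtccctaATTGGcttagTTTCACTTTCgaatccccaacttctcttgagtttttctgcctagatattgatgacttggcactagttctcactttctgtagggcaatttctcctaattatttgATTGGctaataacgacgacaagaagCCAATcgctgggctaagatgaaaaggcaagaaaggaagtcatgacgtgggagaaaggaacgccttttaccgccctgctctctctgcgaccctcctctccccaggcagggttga
H2-Q4: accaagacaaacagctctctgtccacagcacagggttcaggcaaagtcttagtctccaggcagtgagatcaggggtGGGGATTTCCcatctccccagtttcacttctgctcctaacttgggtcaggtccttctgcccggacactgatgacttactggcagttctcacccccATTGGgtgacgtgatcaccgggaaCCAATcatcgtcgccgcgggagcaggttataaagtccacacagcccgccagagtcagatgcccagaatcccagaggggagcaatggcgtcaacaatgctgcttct
B2m: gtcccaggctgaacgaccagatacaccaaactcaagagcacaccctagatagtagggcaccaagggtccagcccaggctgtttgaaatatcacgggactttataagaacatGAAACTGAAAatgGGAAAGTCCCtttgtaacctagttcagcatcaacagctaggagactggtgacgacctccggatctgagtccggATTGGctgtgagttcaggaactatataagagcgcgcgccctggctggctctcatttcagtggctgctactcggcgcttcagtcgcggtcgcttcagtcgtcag
Irgm1: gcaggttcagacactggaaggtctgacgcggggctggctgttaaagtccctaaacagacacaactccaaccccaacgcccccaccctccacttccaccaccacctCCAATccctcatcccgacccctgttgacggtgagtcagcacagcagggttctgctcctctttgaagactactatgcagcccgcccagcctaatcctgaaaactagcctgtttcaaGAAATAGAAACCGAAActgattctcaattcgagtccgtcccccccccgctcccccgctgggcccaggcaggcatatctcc
Socs1: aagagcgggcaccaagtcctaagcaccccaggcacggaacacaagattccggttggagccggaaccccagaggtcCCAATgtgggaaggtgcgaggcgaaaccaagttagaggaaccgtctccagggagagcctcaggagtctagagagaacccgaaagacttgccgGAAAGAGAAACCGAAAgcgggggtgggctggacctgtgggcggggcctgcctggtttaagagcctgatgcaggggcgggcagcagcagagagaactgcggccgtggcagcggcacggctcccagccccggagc
Cybb: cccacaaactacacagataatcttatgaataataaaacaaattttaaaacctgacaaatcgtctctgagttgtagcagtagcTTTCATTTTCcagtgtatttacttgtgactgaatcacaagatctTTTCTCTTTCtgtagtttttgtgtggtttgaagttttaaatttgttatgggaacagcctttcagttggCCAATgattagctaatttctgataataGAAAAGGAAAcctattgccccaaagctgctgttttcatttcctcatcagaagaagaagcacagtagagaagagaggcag
Irf8: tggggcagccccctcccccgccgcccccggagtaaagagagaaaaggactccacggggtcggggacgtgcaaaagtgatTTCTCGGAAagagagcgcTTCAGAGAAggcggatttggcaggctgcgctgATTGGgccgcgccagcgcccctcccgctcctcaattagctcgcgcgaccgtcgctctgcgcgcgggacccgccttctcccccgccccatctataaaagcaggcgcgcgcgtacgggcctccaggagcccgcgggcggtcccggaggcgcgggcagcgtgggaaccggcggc
The H2-T22 window (chr17:36042693-36042992, minus strand) holds 1 response element core, in reverse at 191 bases before the start, and 3 CCAAT boxes. The H2-Q4 window (chr17:35379367-35379666, plus strand) holds 1 NF-kB site and 2 CCAAT boxes. In B2m (chr2:122147437-122147736, plus strand) a response element core and an NF-kB site begin 139 and 126 bases before the start, separated by 3 bases. In Irgm1 (chr11:48871371-48871670, minus strand) and Socs1 (chr16:10785487-10785786, minus strand) a pair of response element cores overlap by 4 bases. Cybb (chrX:9469275-9469574, minus strand), a subunit of the phagocyte oxidase, holds 3 separate response element cores, and this RefSeq start lies 18447 bases from the start of the deposited gene. Irf8 (chr8:120736108-120736407, plus strand) holds 2 gamma-activated sequence cores, beginning 171 and 153 bases before the start, and a CCAAT box. Of the 49 risen genes whose windows were searched, 8 hold a gamma-activated sequence core, Irf1, Igtp and Psmb8 among them, where 8.30% of all promoters do. The response element core is also in windows not printed, among them those of Ctss, Gbp2, Fcgr4 and H2-T23. Igtp and Tgtp2 hold both cores. The 49 windows were not tested against those of other genes. A match is a run of letters and not a measured binding site.

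Several chemokines of monocytes and T cells rose, from low levels. Ccl8, which attracts monocytes, was at 0.694 and 1.197 FPKM in control and 12.8, 9.83 and 11.2 FPKM in EAM, the largest log2 change of all genes that passed (log2 change 2.66, SE 0.27, limma adjusted p = 0.00479). All 3 EAM libraries were more than 8 times the higher control. Ccl7, another monocyte chemokine, was at 0.664 and 1.19 FPKM in control and 7.46, 3.503 and 13.5 FPKM in EAM, and the EAM libraries differed by 3.85-fold, the widest spread of any risen gene (log2 change 2.10, SE 0.39, limma adjusted p = 0.0383). Ccl5, a chemokine of T cells and macrophages, was at 0.295 and 0.963 FPKM in control and 3.42, 2.94 and 2.41 FPKM in EAM (log2 change 1.29, SE 0.25, limma adjusted p = 0.0415). Cxcl9, which interferon gamma induces and which recruits CXCR3-bearing T cells, was at 0.381 and 0.626 FPKM in control and 2.13, 3.54 and 2.74 FPKM in EAM (log2 change 1.33, SE 0.18, limma adjusted p = 0.0101). Cxcl16, a membrane-bound ligand, was at 2.38 and 3.33 FPKM in control and 6.19, 5.88 and 5.76 FPKM in EAM (adjusted p = 0.0225). In all, 3 of 9 CC and 2 of 7 other chemokine genes rose, against 1.36% of all tested genes. Ccl2, the classical monocyte chemokine, was at 0.464 and 0.819 FPKM in control and 3.13, 1.03 and 3.71 FPKM in EAM and did not pass (adjusted p = 0.174), with EAM wild type 2 near control. Cxcl13, a B cell chemokine, was at 0.103 and 0 FPKM in control and 0.242, 4.71 and 0.598 FPKM in EAM, high in EAM wild type 2 only. Of the receptors, Cx3cr1, of patrolling monocytes and resident macrophages, rose from 0.463 and 0.582 to 1.25, 1.61 and 1.26 FPKM, and the monocyte receptor Ccr2 was under the filter at 0.0589 and 0.0629 FPKM in control and 0.421, 0.2602 and 0.304 FPKM in EAM. Without control 1 no chemokine or receptor passed.
Transcripts of the cytokines Il1b, Il6, Tnf and Il17a were scarce. Il1b, which encodes interleukin-1β, stood at 0.151 and 0.173 FPKM in control and 2.39, 1.33 and 2.34 FPKM in EAM (log2 change 1.36, SE 0.17, limma adjusted p = 0.00616) and was the only riser of 8 tested inflammatory cytokines. Il6 and Tnf were under the filter, at 0 and 0 FPKM in control and 0.153, 0.0958 and 0.0337 FPKM in EAM, and at 0.349 and 0.179 FPKM in control and 0.502, 0.707 and 0.768 FPKM in EAM. Il17a, the cytokine that defines Th17 cells, was at 0 in all 5 libraries, where 3 fragments would be 0.151 to 0.178 FPKM. None of 12 tested genes of IL-17 signalling passed, and their median log2 change was 0.10. Cebpb, a factor downstream of IL-17 and IL-6, was at 65.6 and 44.1 FPKM in control and 35.4, 23.6 and 31.9 FPKM in EAM and did not pass (adjusted p = 0.127).

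Acute phase and protease inhibitor genes stood out next to those cytokines. Serpina3n, a secreted inhibitor of serine proteases, was at 3.66 and 6.92 FPKM in control and 18.2, 23.4 and 16.7 FPKM in EAM (log2 change 1.74, SE 0.30, limma adjusted p = 0.0265). Serpina3g, its intracellular relative, was at 0.1597 and 0.143 FPKM in control and 1.54, 1.41 and 1.88 FPKM in EAM, so that it was near absent in control (log2 change 1.18, SE 0.13, limma adjusted p = 0.00479). Lbp, the lipopolysaccharide-binding protein, rose from 0.893 and 1.17 to 2.14, 2.45 and 1.94 FPKM. Saa3 and Hp, at 0.668 and 0.384 FPKM in control and 4.71, 2.33 and 6.87 FPKM in EAM and at 0.176 and 0.304 FPKM in control and 8.38, 7.34 and 2.41 FPKM in EAM, were higher in each EAM library without passing (adjusted p = 0.0965 and 0.184). In all 3 of 10 genes of this list rose, against 1.36% of all tested genes, and without any 1 of the EAM libraries 1 of 10 did.

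Complement rose at its central and alternative pathway genes. C3, cleaved by every activation route, was at 11.5 and 18.4 FPKM in control and 78.001, 110.4 and 45.8 FPKM in EAM, and EAM wild type 2 was 2.41 times EAM wild type 3 (log2 change 2.26, SE 0.43, limma adjusted p = 0.0415). Its call was lost under 11 of 20 alternatives. Cfb, factor B of the alternative convertase, on chromosome 17 from 34856374 to 34862518, was at 0.111 and 0.0566 FPKM in control and 4.17, 4.02 and 3.87 FPKM in EAM. The controls correspond to 5.3 and 2.35 fragments, and the EAM libraries to 159 to 174 (log2 change 2.21, SE 0.13, limma adjusted p = 0.000268). It had the smallest p of all genes, and its call was lost in none of the alternatives. All 17 tested complement genes had positive changes (median 0.58) and only these 2 passed. Over all tested genes 66.7% of changes were positive, with a median of 0.08, and 1.36% of the genes rose. C4b was at 1.15 and 1.82 FPKM in control and 8.37, 13.4 and 3.61 FPKM in EAM (adjusted p = 0.127), and it shares fragments with its copy C4a. C1qa, made by macrophages, was at 52.4 and 56.8 FPKM in control and 76.8, 81.8 and 76.3 FPKM in EAM and did not pass (adjusted p = 0.0867). Cfd, the adipocyte-made factor D, was at 0.06399 and 0.0737 FPKM in control and 0.377, 16.8 and 1.71 FPKM in EAM, high in EAM wild type 2 only. Of 6 Fc receptor genes, which bind antibody on phagocytes, the activating Fcgr4 and the inhibitory Fcgr2b rose, at 0.376 and 0.541 FPKM in control and 1.83, 2.08 and 1.48 FPKM in EAM and at 1.15 and 1.77 FPKM in control and 3.46, 3.03 and 2.59 FPKM in EAM.

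Markers of monocytes and macrophages had 6 risen genes of 13 tested, against 1.36% of all tested genes, and a median log2 change of 0.65. In bulk RNA, more cells of a type and more RNA per cell cannot be told apart. Lyz2, lysozyme, was at 115 and 136 FPKM in control and 274, 280.4 and 227 FPKM in EAM, Adgre1, the F4/80 antigen, at 1.16 and 0.979 FPKM in control and 2.46, 2.95 and 2.61 FPKM in EAM, and Mpeg1, a pore-forming protein of macrophages, at 1.98 and 2.92 FPKM in control and 7.76, 7.22 and 5.999 FPKM in EAM. All 3 were clear of control in every EAM library (0.0278, 0.011 and 0.0139 as limma adjusted p). Laptm5 and Cx3cr1 also rose. Without control 1, or with the atrial score as a covariate, none of the 13 passed, and without EAM wild type 1 or control 2 only 1 did. Cd68 was at 5.23 and 6.81 FPKM in control and 9.58, 9.82 and 9.02 FPKM in EAM and Csf1r at 8.36 and 8.85 FPKM in control and 10.96, 13.9 and 8.91 FPKM in EAM, and neither passed (adjusted p = 0.0583 and 0.424). No resident macrophage marker passed. Lyve1, a hyaluronan receptor also found on lymphatic vessels, was at 5.53 and 6.13 FPKM in control and 2.51, 3.28 and 1.79 FPKM in EAM, and the scavenger receptor Cd163 at 2.15 and 1.59 FPKM in control and 1.13, 0.966 and 0.742 FPKM in EAM. Both were lower in each EAM library without passing (adjusted p = 0.0711 and 0.137). The 7 tested genes of that list had a median log2 change of -0.30.
Functions of phagocytes rose in part. Cybb, the catalytic subunit of the oxidase, was at 0.808 and 1.02 FPKM in control and 2.497, 2.55 and 2.03 FPKM in EAM, and Rac2, its haematopoietic GTPase, at 1.95 and 2.17 FPKM in control and 6.43, 5.61 and 5.33 FPKM in EAM (0.0142 and 0.00479 as adjusted p). With Ctss these were the 3 risers among 23 genes of oxidase and lysosome, against 1.36% of all tested genes. Ctsc lay nearest to the threshold (adjusted p = 0.0505), and Ctsd, an abundant lysosomal protease, was at 280.4 and 297 FPKM in control and 254, 258 and 306 FPKM in EAM. Nos2, inducible nitric oxide synthase, was at 4.03 and 3.75 FPKM in control and 6.12, 8.23 and 8.32 FPKM in EAM (adjusted p = 0.0265).

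Genes of other leukocytes were low. Cd209a, of dendritic cells, was at 0.119 and 0.183 FPKM in control and 1.499, 1.98 and 1.21 FPKM in EAM (log2 change 1.14, SE 0.18, limma adjusted p = 0.0177) and Cd3g, of the T cell receptor complex, at 0.133 and 0.153 FPKM in control and 1.51, 1.52 and 0.773 FPKM in EAM (log2 change 0.97, SE 0.17, limma adjusted p = 0.032). Both were near 0 in control and clearly detected in every EAM library. The calls were lost under 7 of 19 and 12 of 19 alternatives. The T cell receptor constant genes Trac and Trbc2 did not pass (adjusted p = 0.211 and 0.203), and Cd4, Cd8a and Foxp3 were under the filter. Gzma, of cytotoxic cells, was at 0.135 and 0.542 FPKM in control and 2.22, 1.19 and 3.13 FPKM in EAM and did not pass (adjusted p = 0.0961). The neutrophil gene S100a9 was at 0.243 and 0.654 FPKM in control and 1.53, 4.93 and 4.35 FPKM in EAM (adjusted p = 0.0697), and Ly6g was at 0 throughout. Cd274, which encodes the inhibitory ligand PD-L1, was at 0.979 and 1.05 FPKM in control and 2.67, 4.11 and 2.66 FPKM in EAM and rose (log2 change 1.02, SE 0.18, limma adjusted p = 0.0276).
Immunoglobulin genes were far higher in some EAM libraries. Igkc, the kappa constant region, was at 3.55 and 5.75 FPKM in control and 95.2, 193 and 19.8 FPKM in EAM, and Igha, the IgA heavy chain, at 0.236 and 0.272 FPKM in control and 18.1, 18.2 and 2.09 FPKM in EAM. EAM wild type 3 was much lower than the other 2 EAM libraries in both, and neither passed (adjusted p = 0.137 and 0.0886). Ighm was at 3.12 and 4.59 FPKM in control and 10.1, 20.4 and 9.61 FPKM in EAM and Jchain, which joins IgA and IgM, at 0.0485 and 0.09303 FPKM in control and 2.97, 5.68 and 0.414 FPKM in EAM. None of 12 tested B and plasma cell genes passed, with a median log2 change of 1.16. The variable segment Igkv1-110 did pass. It was at 0 in both controls and at 4.51, 6.18 and 2.92 FPKM in EAM, at least 8.92-fold higher when control is set to 3 fragments per library. Ighj2, a joining segment of 100 bases, was at 1.16 and 1.33 FPKM in control and 0 in EAM. Its control values correspond to 1.96 fragments each, under the floor of 3, so its place among the 14 falls rests on 4 fragments in all.

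**Figure D3:**
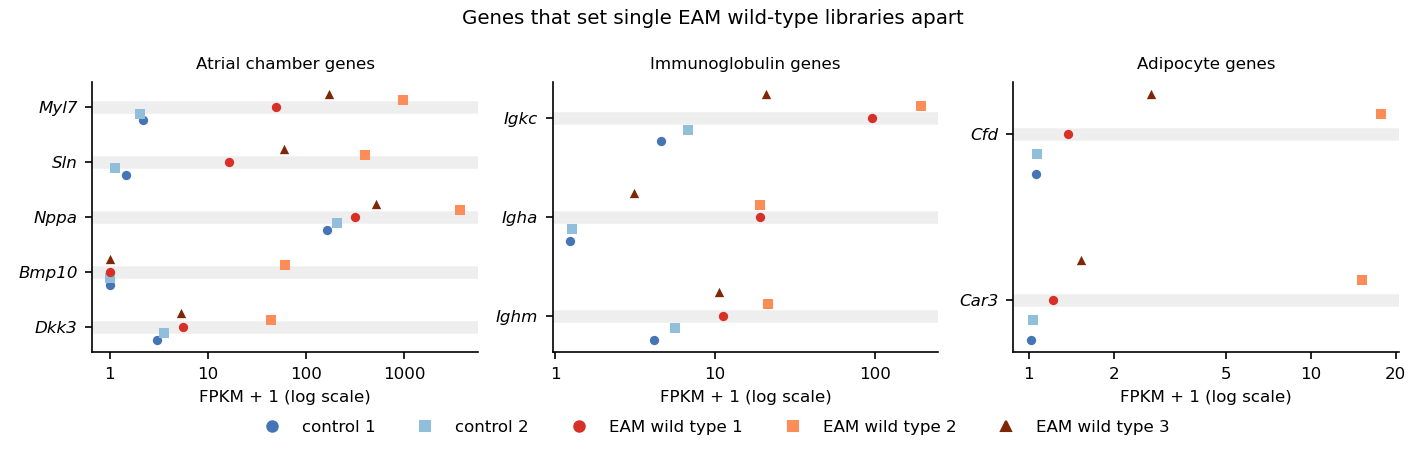
FPKM + 1 on a log scale for genes that set single EAM wild-type libraries apart, 1 point per library. EAM wild type 2 is highest for the atrial genes, at 977 FPKM of Myl7, and for the adipocyte genes, and EAM wild type 3 is lowest of the EAM libraries for Igkc, at 19.8 FPKM.

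Outside the fixed lists, 75 of the 141 rises remained, and the following were taken from them. Bcl2a1d and Cd52 were named by the rule, and the others were chosen after their values were seen. Several encode parts of NF-kB signalling. Relb, a subunit of the noncanonical pathway, was at 1.75 and 1.97 FPKM in control and 3.27, 3.19 and 3.55 FPKM in EAM, Nfkbie, an inhibitor, at 1.02 and 0.645 FPKM in control and 2.44, 2.802 and 2.61 FPKM in EAM and Bcl3, a nuclear co-regulator, at 1.28 and 1.31 FPKM in control and 3.73, 3.896 and 4.56 FPKM in EAM. The last 2 calls were lost under 2 of 19 and 1 of 19 alternatives, and that of Relb under 13 of 19. Tnfrsf1b, the second receptor of tumour necrosis factor, was at 3.56 and 3.92 FPKM in control and 7.58, 6.96 and 6.15 FPKM in EAM (adjusted p = 0.0229). Bcl2a1d, an anti-apoptotic gene with close copies, was at 0.342 and 0.315 FPKM in control and 2.42, 3.02 and 2.71 FPKM in EAM (log2 change 1.48, SE 0.12, limma adjusted p = 0.00173). Leukocyte genes made up another part. Cd52, a surface glycoprotein of lymphocytes and macrophages, was at 1.18 and 1.602 FPKM in control and 5.86, 4.99 and 6.83 FPKM in EAM (log2 change 1.52, SE 0.19, limma adjusted p = 0.00646). Cd53 rose by 1.16, Coro1a by 0.85, Il2rg by 0.74 and Spi1, the transcription factor PU.1, by 0.82 on the log2 scale. Tmem173, the adaptor STING of cytosolic DNA sensing, was at 3.65 and 4.19 FPKM in control and 8.69, 8.05 and 9.12 FPKM in EAM (log2 change 0.97, SE 0.11, limma adjusted p = 0.00479). Acadsb, a mitochondrial dehydrogenase of branched-chain amino acid breakdown, was at 2.25 and 1.39 FPKM in control and 5.71, 6.38 and 6.84 FPKM in EAM.

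Among genes of the vessel wall, Icam1, the adhesion receptor for leukocyte integrins, was at 5.42 and 7.06 FPKM in control and 12.8, 13.5 and 14.8 FPKM in EAM (log2 change 1.03, SE 0.14, limma adjusted p = 0.00948). It was the only riser of 8 genes of endothelial activation. Vcam1 was at 1.52 and 1.44 FPKM in control and 2.22, 3.299 and 2.14 FPKM in EAM and did not pass (adjusted p = 0.235), and Sele and Selp were not among the tested genes. None of 16 general endothelial markers passed, Kdr coming closest at 17.9 and 13.2 FPKM in control and 30.2, 25.3 and 27.3 FPKM in EAM (adjusted p = 0.0599). Bcl6b, a transcriptional repressor of endothelial cells, rose from 10.02 and 9.72 to 21.6, 17.4 and 24.7 FPKM, and Fli1 and Ets2 rose by 0.61 and 0.64 on the log2 scale. These last 3 were chosen after their values were seen.
Matrix genes changed at a few members. Timp1, an inhibitor of metalloproteinases that inflamed tissue makes, was at 0.854 and 1.96 FPKM in control and 6.83, 7.59 and 10.7 FPKM in EAM (log2 change 1.98, SE 0.24, limma adjusted p = 0.00616). Timp4, the member of the family typical of healthy heart muscle, moved the other way, at 20.2 and 15.5 FPKM in control and 5.89, 6.02 and 10.04 FPKM in EAM (log2 change -1.20, SE 0.22, limma adjusted p = 0.0336). Timp2 and Timp3 did not pass (adjusted p = 0.335 and 0.79). Col3a1, a fibrillar collagen, was at 21.8 and 21.4 FPKM in control and 57.1, 63.5 and 45.1 FPKM in EAM (mean 2.56-fold higher, limma adjusted p = 0.0122), while Col1a1 was at 26.8 and 27.3 FPKM in control and 58.4, 65.3 and 35.5 FPKM in EAM and did not pass (adjusted p = 0.143). Mmp14, a membrane-bound protease, was at 2.85 and 1.72 FPKM in control and 4.63, 6.43 and 4.31 FPKM in EAM, a call lost under 15 of 19 alternatives. Of 25 genes of activated fibroblasts and fibrosis 1 rose, with a median log2 change of 0.43. The myofibroblast gene Acta2, also of smooth muscle, was at 391 and 434 FPKM in control and 355, 496 and 362 FPKM in EAM. Aldh1a2, the retinoic acid synthase of the epicardium, was at 2.32 and 2.37 FPKM in control and 5.83, 6.46 and 5.08 FPKM in EAM (log2 change 1.01, SE 0.14, limma adjusted p = 0.0119).

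Of the lists of contraction, chamber identity, stretch and energy use no gene passed. Of 17 contractile genes 16 were lower in EAM, with a median log2 change of -0.22, where 66.7% of all tested genes had positive changes. Tnni3, cardiac troponin I, was at 1664 and 1701 FPKM in control and 1421, 1222 and 1480.3 FPKM in EAM and Ttn, titin, at 10.9 and 9.19 FPKM in control and 7.102, 8.28 and 5.81 FPKM in EAM, and neither passed (adjusted p = 0.342 and 0.342). The stretch markers Nppb, at 543 and 561 FPKM in control and 772, 650.4 and 1002 FPKM in EAM, and Ankrd1, at 1017 and 1065 FPKM in control and 1096, 1278 and 1385 FPKM in EAM, did not pass either (adjusted p = 0.242 and 0.61). Nppa was at 162 and 206 FPKM in control and 317, 3749 and 512 FPKM in EAM, and its high value lies in the library with most atrial transcript. Rrad, a small GTPase that restrains the L-type calcium channel, was at 24.3 and 35.1 FPKM in control and 60.1, 71.5 and 62.4 FPKM in EAM and was the only riser of 21 genes of calcium handling and ion channels (log2 change 1.11, SE 0.17, limma adjusted p = 0.0144). Its call was lost under 5 of 20 alternatives, among them those without EAM wild type 2 and without control 1. Median log2 changes were -0.23 for 18 genes of fatty acid oxidation, -0.19 for 19 of glycolysis, -0.19 for 27 nuclear genes of oxidative phosphorylation and -0.23 for 13 mitochondrial ones. No gene of these lists passed. In FPKM as deposited, the falls of the oxidative phosphorylation and mitochondrial lists were not shared by all EAM libraries. The median-ratio scaling factor was highest in EAM wild type 3, at 1.142, and was 1.001 and 0.9604 in control. The means that follow were not divided by it. The mean log2(FPKM + 1) of the nuclear genes was 7.835 and 7.819 in control and 7.503, 7.547 and 7.89 in EAM. For the mitochondrial genes it was 13.73 and 13.8 in control and 13.84, 13.67 and 13.03 in EAM. The mitochondrial median turned to 0.035 under 1 alternative. The median of the nuclear list stayed negative under every setting, from -0.3135 to -0.1198.

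**Figure D4:**
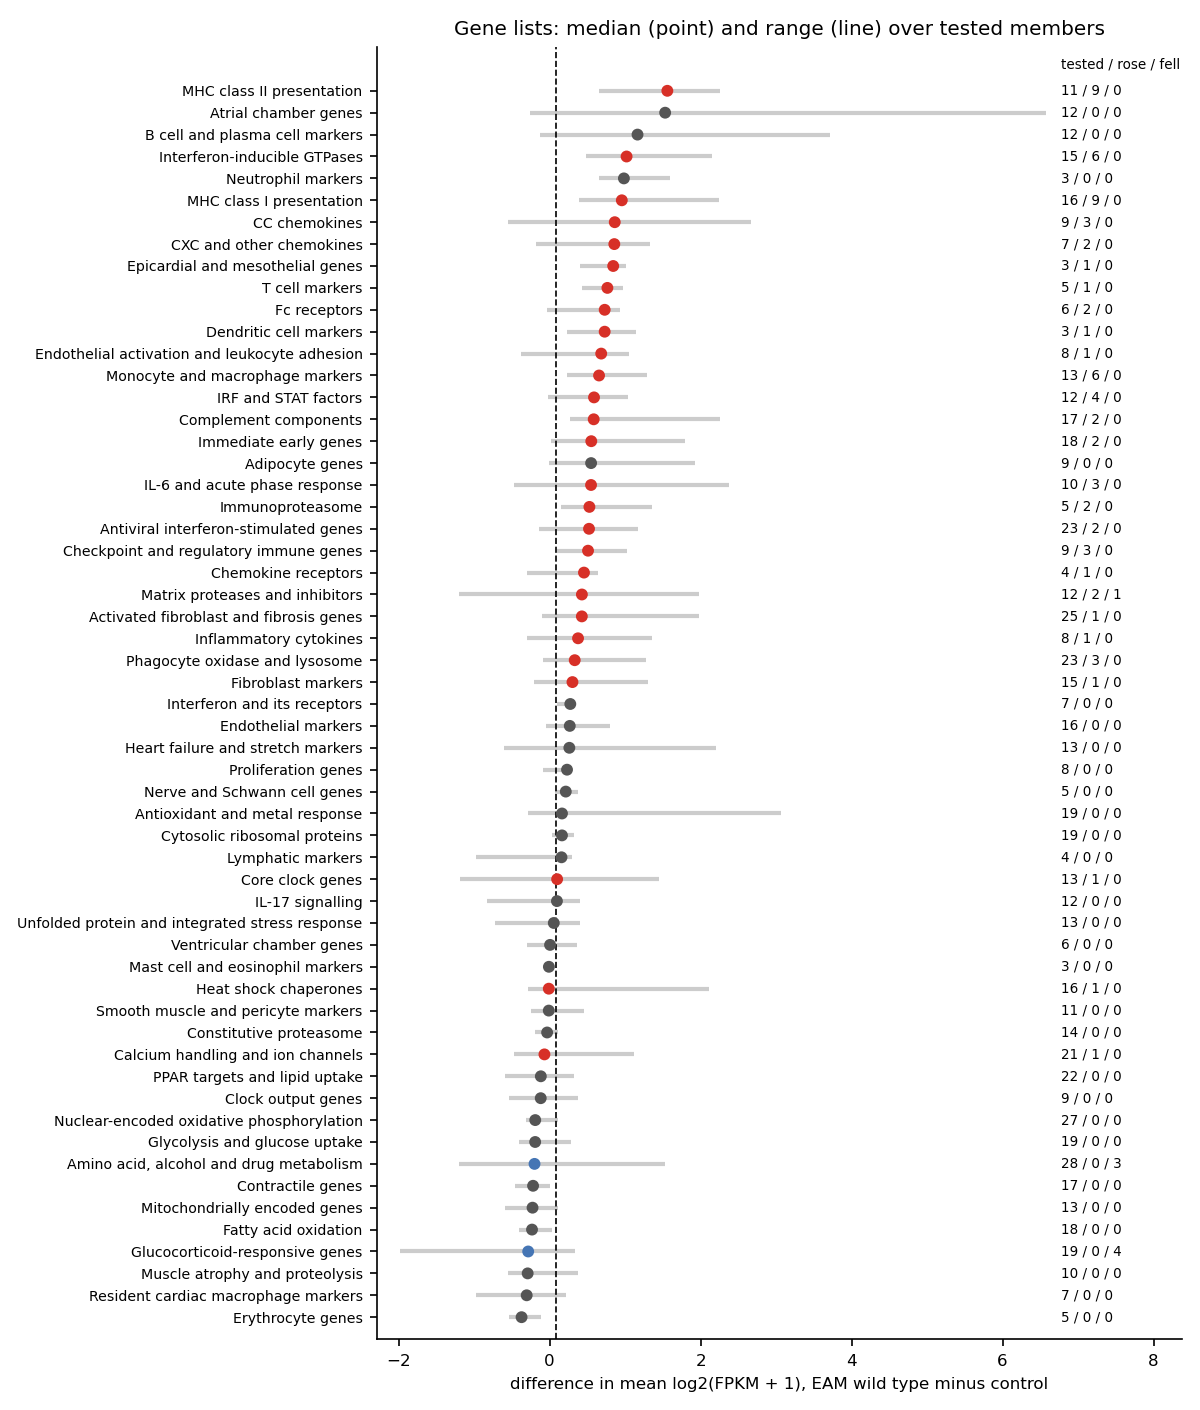
For each gene list with at least 3 tested members, the point is the median and the line the range of the difference in mean log2(FPKM + 1) between EAM wild type and control. The dashed line is the median of all tested genes, 0.08, red points have at least 1 risen member and blue points at least 1 fallen and none risen. The atrial list has the second largest median, 1.53, with no member past the threshold.

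Of the 14 falls 4 were in genes known to respond to glucocorticoids, and 1 of these had the largest fall. Zbtb16, which encodes the transcription factor PLZF, was at 13.9 and 7.45 FPKM in control and 1.54, 1.96 and 2.04 FPKM in EAM. All EAM libraries were near 2 FPKM and control 1 was far above control 2 (log2 change -1.98, SE 0.22, limma adjusted p = 0.00479), and no alternative lost the call. Fkbp5, a co-chaperone that dampens the glucocorticoid receptor, was at 4.21 and 3.64 FPKM in control and 1.71, 1.4995 and 1.06 FPKM in EAM (log2 change -1.03, SE 0.14, limma adjusted p = 0.00898). Map3k6, a stress-activated kinase, was at 5.58 and 5.56 FPKM in control and 2.43, 2.102 and 1.89 FPKM in EAM, and Fam107a, an actin-associated protein, at 4.34 and 2.88 FPKM in control and 0.955, 0.943 and 1.04 FPKM in EAM. In both the EAM libraries were less than 3 FPKM and lay close together (0.00479 and 0.00561 as adjusted p). Of 19 tested genes of this list these 4 fell and none rose, where 0.135% of all tested genes fell. The list was chosen with earlier results of these data known, so this share is a description and not a test. Its median log2 change was -0.28, and 1 alternative turned it to 0.055. Tsc22d3, Per1 and Pdk4 of the same list did not pass (adjusted p = 0.658, 0.837 and 0.97), and Nr3c1, the receptor gene, was at 2.46 and 2.06 FPKM in control and 2.63, 2.64 and 2.84 FPKM in EAM. The list held known targets from several tissues, and the hormone itself was not measured.
Enzymes made up the second group of falls. Adh1, which oxidises alcohol and retinol, was at 16.3 and 16.2 FPKM in control and 5.99, 6.62 and 6.86 FPKM in EAM (log2 change -1.21, SE 0.16, limma adjusted p = 0.00998). Prodh, proline dehydrogenase, was at 7.66 and 7.41 FPKM in control and 4.68, 4.12 and 4.11 FPKM in EAM, and Sult1a1, a phenol sulfotransferase, at 13.9 and 14.98 FPKM in control and 7.59, 8.58 and 9.72 FPKM in EAM. These were 3 of 28 tested genes of amino acid, alcohol and drug metabolism, and none of the 28 rose. This list too was chosen with earlier results known. Fmo2 and Gsta3 were lower in every EAM library without passing (adjusted p = 0.0583 and 0.0843). The other falls were Ppbp, a chemokine of platelets, at 3.66 and 3.703 FPKM in control and 1.48, 1.08 and 0.762 FPKM in EAM, Ltc4s, which makes leukotriene C4, at 3.798 and 4.199 FPKM in control and 2.204, 2.23 and 1.95 FPKM in EAM, Tfdp2, a partner of E2F, at 1.57 and 1.36 FPKM in control and 0.4997, 0.574 and 0.655 FPKM in EAM, Vsig2 at 7.58 and 7.38 FPKM in control and 4.69, 3.74 and 4.94 FPKM in EAM, and the gene model Gm20417 at 5.14 and 4.32 FPKM in control and 2.62, 2.76 and 2.59 FPKM in EAM. Without control 1 only 2 of the 14 falls still passed, and without EAM wild type 2 it was 7.
Among fallen genes whose window holds a CACGTG E box or a D box, Fkbp5 and Adh1 came first by number of matches and then by smaller p. Only their promoters are printed, with the E box in capitals, the site of clock and MYC-type factors. Of all 32851 promoters 7.15% hold one, and 2.32% hold the D box TTANGTAA, which is in neither window.
Fkbp5: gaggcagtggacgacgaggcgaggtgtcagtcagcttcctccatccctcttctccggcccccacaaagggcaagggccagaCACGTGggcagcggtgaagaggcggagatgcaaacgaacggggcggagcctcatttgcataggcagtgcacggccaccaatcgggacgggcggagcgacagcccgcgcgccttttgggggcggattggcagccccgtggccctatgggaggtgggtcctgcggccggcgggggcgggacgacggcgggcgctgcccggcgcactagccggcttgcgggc
Adh1: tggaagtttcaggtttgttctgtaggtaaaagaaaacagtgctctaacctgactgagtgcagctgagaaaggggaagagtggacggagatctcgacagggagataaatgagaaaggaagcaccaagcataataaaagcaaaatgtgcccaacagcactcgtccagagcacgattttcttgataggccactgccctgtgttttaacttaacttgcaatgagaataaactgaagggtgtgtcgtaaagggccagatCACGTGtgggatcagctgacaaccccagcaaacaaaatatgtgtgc
The Fkbp5 window (chr17:28486100-28486399, minus strand) has its E box 169 bases before the RefSeq start, which lies 31375 bases from the start of the deposited gene. In Adh1 (chr3:138277335-138277634, plus strand) it begins 4 bases after the first base of the start, and the deposited gene starts 16594 bases away.

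**Figure D5:**
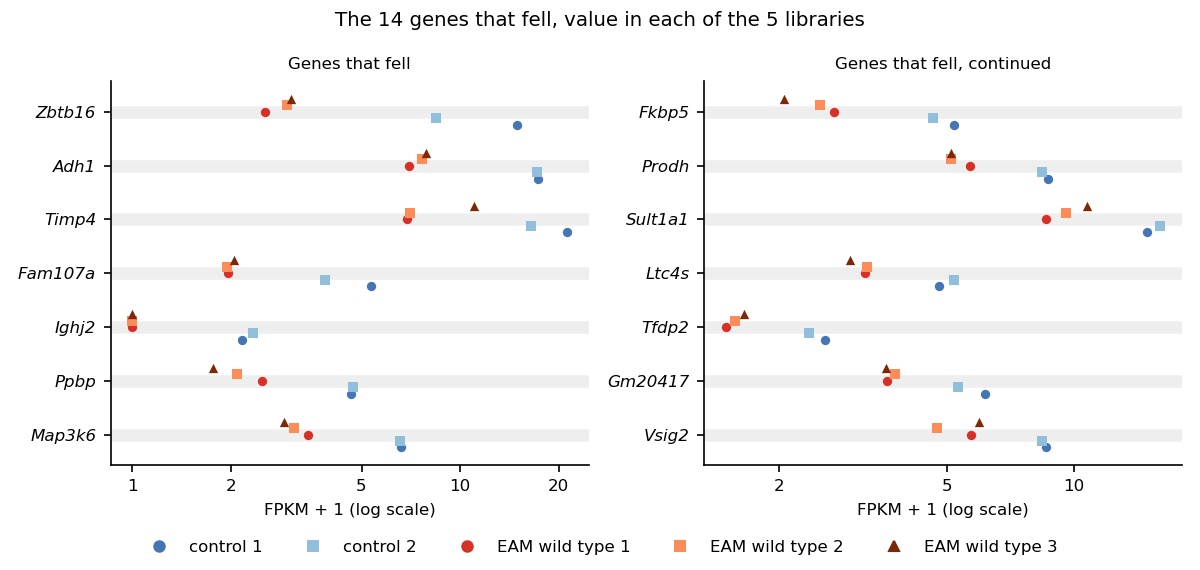
FPKM + 1 on a log scale for the 14 genes that fell, 1 point per library, ordered by the size of the fall. In every gene both controls lie to the right of all 3 EAM libraries, as for Adh1 at 16.3 and 16.2 against 5.99, 6.62 and 6.86 FPKM.

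Clock genes were compared because the hour of collection is not given in the labels. Bhlhe40, a repressor of the clock that inflammation also induces, was at 8.11 and 9.18 FPKM in control and 14.9, 13.1 and 13.6 FPKM in EAM and was the only 1 of 13 core clock genes to pass (adjusted p = 0.0449). Nr1d1, a repressor with a strong daily rhythm, was at 10.1 and 30.6 FPKM in control and 50.5, 57.4 and 44.3 FPKM in EAM and differed between the controls themselves (adjusted p = 0.11). Per2 was at 15.4 and 17.9 FPKM in control and 10.7, 5.3002 and 5.36 FPKM in EAM (adjusted p = 0.0914), and Arntl at 1.12 and 0.211 FPKM in control and 0.766, 1.89 and 1.47 FPKM in EAM (adjusted p = 0.377). Dbp, a direct clock output, was at 15.4 and 34.2 FPKM in control and 32.5, 30.3 and 27.1 FPKM in EAM. The part of collection time in the falls above was not tested.
Immediate early genes respond within minutes to stimulation and also to handling of tissue. They had 2 risen genes of 18 tested, against 1.36% of all tested genes, and a median log2 change of 0.55. Jun was at 22.98 and 20.8 FPKM in control and 45.6, 37.9 and 36.4 FPKM in EAM and Egr1 at 1.7995 and 2.07 FPKM in control and 9.05, 4.303 and 5.69 FPKM in EAM, and both rose (adjusted p = 0.0495 and 0.0439). EAM wild type 1 was the highest library in both, and without it, or without either control, neither passed. Nr4a1 and Fos were also highest in that library, at 6.903 and 5.44 FPKM in control and 39.4, 21.5 and 15.7 FPKM in EAM and at 0.732 and 0.789 FPKM in control and 4.38, 2.099 and 2.88 FPKM in EAM, without passing (adjusted p = 0.0543 and 0.112). The inducible chaperone genes Hspa1a and Hspa1b, which are near copies, were also highest in EAM wild type 1, Hspa1a being at 13.4 and 4.697 FPKM in control and 104, 29.1 and 17.8 FPKM in EAM. Dnajb1, their co-chaperone, was at 18.9 and 13.7 FPKM in control and 55.2, 32.8 and 31.8 FPKM in EAM and rose (adjusted p = 0.0466), a call lost under 12 of 20 alternatives.

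The ratio of the highest to the lowest EAM library over the 141 risen genes had a median of 1.26 and ran from 1.02 in Plekho2 to 3.85 in Ccl7. Plekho2 was at 7.03 and 8.46 FPKM in control and 16.2, 15.9 and 16.2 FPKM in EAM. Besides Ccl7, the widest spreads were those of BC023105, C3, Igkv1-110 and Egr1, from 2.42 to 2.10. The lowest EAM library was EAM wild type 3 in 70 of the 141 genes, EAM wild type 2 in 39 and EAM wild type 1 in 32. The highest was spread more evenly, at 51, 50 and 40 for EAM wild type 1, 2 and 3. EAM wild type 3 was thus most often the nearest to control, and it was also the lowest in Igkc and in mitochondrial transcript share.
Genes furthest from the other EAM libraries were not among the 155. EAM wild type 2 was far above in Bmp10, a growth factor of the atrium, at 0 and 0 FPKM in control and 0, 60.8 and 0 FPKM in EAM, in Hamp, hepcidin, at 0.721 and 0 FPKM in control and 1.695, 80.8 and 5.03 FPKM in EAM, and in the fat gene Car3, at 0.0159 and 0.0365 FPKM in control and 0.224, 14.2 and 0.536 FPKM in EAM. The thermogenic gene Ucp1 of brown fat was at 0 and 0 FPKM in control and 0, 3.77 and 0 FPKM in EAM, and Scgb1a1, a gene of airway club cells, at 0 and 0 FPKM in control and 0, 6.72 and 0 FPKM in EAM. EAM wild type 2 thus carried transcripts of atrium and fat, and 1 airway transcript, that were near 0 in control. Leaving it out does not remove the atrial difference, as Myl7 was also above both controls in EAM wild type 1 and 3, at 48.6 and 169 FPKM. Scgb1a1 made up 6.72 of the 6.85 FPKM summed over 7 lung genes in that library. Without EAM wild type 2, 71 genes rose, 63 of them among the 141, and 8 of 11 class II, 8 of 16 class I and 3 of 15 GTPase genes passed. The controls differed from each other in Ntn1, a guidance and survival cue, at 16.2 and 1.84 FPKM, and in Gpx3, a plasma glutathione peroxidase, at 46.1 and 214 FPKM.

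Near the threshold, 155 further genes were higher and 26 lower at an adjusted p of 0.05 to 0.1, the border lying between 0.0495 and 0.0505. Under the 20 alternative settings 9 of the 155 calls were never lost in any setting that could test them. The risen ones were H2-Q6, Cfb, H2-Ea-ps, Gm4841, Bcl2a1d, Psmb8 and H2-Q7, and the fallen ones were Ighj2 and Zbtb16.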

How the data were processed

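Messenger RNA of mouse hearts was sequenced in 8 bulk libraries, and groups were taken from the labels. The authors deposited FPKM values for 34745 genes, with symbols, identifiers and coordinates. HISAT2 2.0.4, StringTie 1.3.3b, edgeR and the build mm10 are named per the submitters' processing notes, without their roles. Annotation release, filters and strand setting remain not given in the sources used here. Without strand, reads of overlapping or antisense genes cannot be separated. Near-identical copies are uncertain. Depth was inferred from the steps between low values, with exon lengths of GENCODE M21, which holds 98.8% of the identifiers. Floors are 3 fragments and include counting error alone.

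The test was limma's (3.58.1, R 4.3.3) on log2(FPKM + 1), with all 8 libraries and 3 groups in 1 fit with 5 residual degrees of freedom and a mean-variance trend. The filter removed 24352 genes. Benjamini-Hochberg adjustment ran over 10393 genes, with a threshold of 0.05. Lists are described by counts and medians, without a test of their own, and for 59 repeated symbols the most abundant row stands in. The members, lists and motifs were chosen with earlier results of these data known.

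Named genes were Trim21, the 20 largest rises and 10 largest falls with a higher group mean of at least 5 FPKM, the 10 smallest p, all falls, and list members that passed or were among the 3 most abundant. Added to these were genes near 0 in control, and genes that varied most or least among the EAM libraries. Genes named outside the rule, among them list members that did not pass, were chosen after their values were seen. A few further named genes are not reported here. In simulated data with 200 of the 10393 genes changed, the procedure found 83% of changes of 1 and 94% of changes of 2 on the log2 scale, and 12 of its 189 calls were false, under noise drawn independently for each gene. Alternatives covered the pseudocount, the filter, the scaling, the libraries used, an atrial score as covariate, the replicate number as a block and the variance model. Promoters came from RefSeq (GRCm38.p6), taking the start nearest to the deposited gene's.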

Additional observations from a re-analysis of the deposited data

How the results depend on the processing

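The count of risen genes, 141, stayed within 1.5 times under 3 other pseudocounts (130 to 162), the variance model without trend (134) and the robust one (173). It was 71 with no filter beyond a value above 0 in 1 library, 72 with at least 5 FPKM in 2 libraries, 74 with median-ratio, 66 with upper-quartile and 58 with quantile scaling, and 333 with array weights. It was 91 with the 5 libraries alone, 50 without the 3 libraries high in atrial transcripts, and 55 once the atrial score was a covariate. The 14 falls were 5 with the higher filter, 8 with 5 libraries, 4 without the atrial-rich libraries, 7 with the atrial covariate and 53 with array weights. Leaving out 1 library at a time gave 13 to 112 rises and 2 to 15 falls, the lowest both without control 1. In that fit the lone control was assumed to vary like the other groups. Whether the replicate numbers pair animals could not be decided. Deviations of replicate 1 and of replicate 2 correlated at -0.14 and -0.175 between the groups. With 2 controls the deviations of 1 mirror those of the other, so these values cannot settle it. With the replicate block 110 genes rose and 9 fell. No change of a named gene that passed turned its direction under any alternative. Among genes that did not pass, log2 changes near 0 crossed it: Ankrd1 (0.261) at -9.112e-06 and Pdk4 (-0.04955) at 0.2268 with the atrial covariate, and Per1 (0.09328) at -0.01138, -0.01862 and -0.007192 with median-ratio, upper-quartile and quantile scaling. Leaving out 1 library at a time gave -0.3675 to 0.2684 for Pdk4, -0.0575 to 0.2441 for Per1 and -0.4955 to 0.05519 for Tsc22d3 (-0.2202). List medians turned sign under at least 1 alternative in 20 of 61 lists, atrial and adipocyte genes among them and class I and II presentation not. Where the count changed, the cause was not tested, except that a wider or narrower filter changes the number of genes tested. At 14390000 to 16930000 fragments, interferon and interleukin genes under the filter could not be compared.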
